A study of Mus musculus with 20 samples.

Results

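The 9 genes followed here encode transcription factors that mark the layers of the cerebral cortex, measured in whole-brain RNA of Katnal2-knockout (KO) and wild-type (WT) mice. They are Cux1, Cux2, Rorb, Bcl11b, Tbr1, Fezf2, Foxp1, Foxp2 and Neurod6. The genes were taken from a list of symbols, and all 9 were found among the 19463 genes of the deposited table. The brains came from male C57BL/6J mice aged 3 weeks (P21) or 10 weeks (P70), which gave the groups P21 WT, P21 KO, P70 WT and P70 KO, each of 5 mice (20 mice altogether). KO mice were homozygous for a frame-shifting deletion of exon 3 of Katnal2, which encodes a katanin-like protein. Katnal2 is thought to regulate microtubules because it resembles known severing proteins, although the paper states that direct severing has not been observed. The deletion came from an EUCOMM allele treated with Flp and then, in embryos, with Cre protein, so it was present in the germ line and not driven by a cell-type promoter. WT mice were littermates housed with the KO mice. In the study, antibodies to Cux1 and Foxp2 served as markers of an upper and a deep cortical layer, and the values below are the RNA levels of these genes and of 7 further layer factors.

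The neurons of the cerebral cortex lie in layers that differ in birth date, wiring and gene expression. Each layer is marked by transcription factors that help to set and keep the identity of its projection neurons. Cux1 and Cux2 are homeobox factors of upper-layer neurons that project within the cortex, and Rorb, a retinoic acid receptor-related orphan receptor, marks the layer that receives thalamic input. Fezf2 and Bcl11b (Ctip2) act in deep-layer neurons that project below the cortex, where Fezf2 lies upstream of Bcl11b. Tbr1, a T-box factor, and Foxp2, a forkhead factor, mark the corticothalamic neurons of the deepest layers, and Tbr1 can repress Fezf2 there. Foxp1 is a related forkhead factor of several layers, and Neurod6 is a basic helix-loop-helix factor of excitatory neurons across the layers. None of them is confined to the cortex. Bcl11b, Foxp1 and Foxp2 are also made by projection neurons of the striatum, Foxp2 by Purkinje cells, Foxp2 and Rorb by the thalamus, Neurod6 and Bcl11b by the hippocampus, and Tbr1 by the olfactory bulb. In whole-brain RNA, fewer cells of a type and less RNA per cell cannot be told apart.

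The values are normalized counts, gene-level read estimates that the authors scaled between mice. They summed to between 27.3 and 28.4 M in each mouse, and the step between the lowest values put the libraries at an estimated 25.9 to 35.7 M read pairs at P21 and 23.2 to 27.5 M at P70. No 2 mice had identical columns, and the closest pair correlated at 0.991 on the log2 scale. Katnal2 itself was lower in KO mice without overlap at P21 (89.0 ± 8.72 against 107 ± 7.38 in WT, SD, n = 5 each) and overlapped between genotypes at P70 (105 ± 11.8 against 122 ± 16.4). The limma test gave it a log2 fold change of -0.27 at P21 (unadjusted p = 0.0207, adjusted p = 1.00), and a count over the whole gene does not show whether exon 3 was present. Markers of cortical excitatory neurons, striatum, thalamus, cerebellum, hippocampus, olfactory bulb, hindbrain, choroid plexus and glia were all detected, as whole brain should give, and no gene of those lists was at 0 in every mouse of a group. The P70 replicate 5 mice of both genotypes stood apart from the rest. For 53.1% of all 17613 genes tested at P70, both lay on the same side outside the range of the other 8 P70 mice, against 2.89% to 4.50% for the other P70 pairs of the same number. At P21 the replicate 3 mice stood apart less widely, at 23.1% of genes, and the other P21 pairs at 2.78% to 9.11%. The members are given with and without the P70 replicate 5 mice below.

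To set the genes side by side, the normalized count was divided by the length of the longest transcript in kilobases (kb). In P21 WT mice Neurod6 was the highest on this per-length scale, at 574 ± 24.5 per kb (SD, n = 5), followed by Tbr1 at 460 ± 17.0. Cux2 (281 ± 16.0) and Foxp1 (280 ± 33.0) came next and overlapped each other. Fezf2 (236 ± 11.7), Bcl11b (218 ± 18.5) and Cux1 (193 ± 7.96) followed, and each overlapped its neighbour in this order. Foxp2 (84.9 ± 5.88) and Rorb (73.5 ± 4.78) were the lowest and overlapped each other. Neurod6, Tbr1 and the pair of Foxp2 and Rorb held these places in all 4 groups, while Bcl11b was at rank 6 in both P21 groups, rank 4 in P70 WT (287 ± 38.4 per kb) and rank 5 in P70 KO (273 ± 51.5 per kb). The order depends on the length used: with the mean length of the transcripts, Foxp1 was first in P21 WT at 941 per kb and Neurod6 was at rank 4 with 574, because Foxp1 has 20 protein-coding transcripts of very different lengths and Neurod6 has 1.

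**Figure D1:**
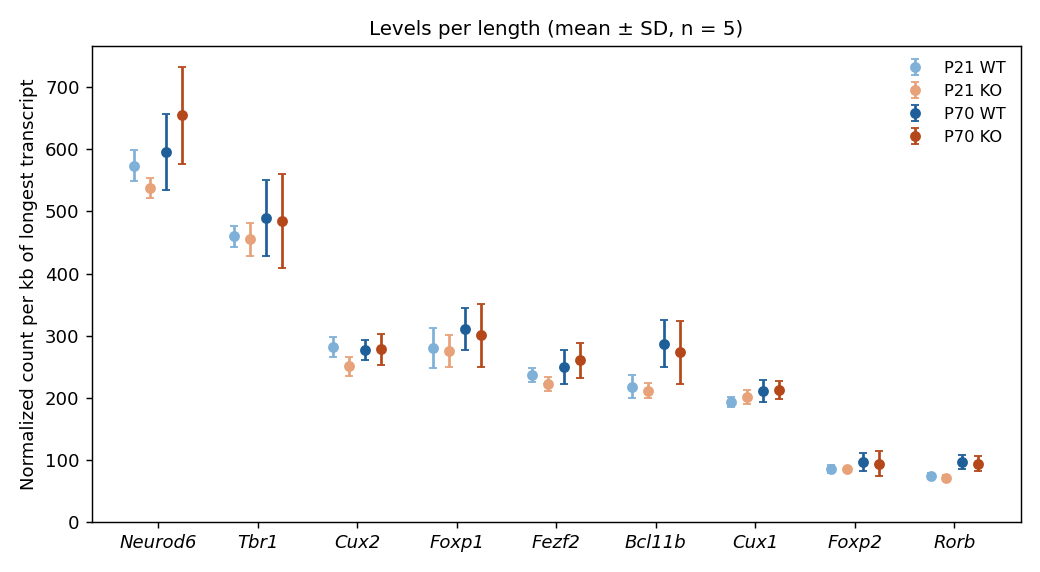
Normalized count per kb of the longest transcript (vertical axis) for the 9 genes (horizontal axis), as the mean of 5 mice with SD in each of the 4 groups. Neurod6 and Tbr1 are the highest in every group and Foxp2 and Rorb the lowest. Bcl11b is at 218 and 211 in P21 WT and KO mice and at 287 and 273 at P70, and Rorb at 74 and 70 and at 96 and 94.

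With all mice, Rorb in both genotypes and Bcl11b in WT mice passed the test between ages below, so the DNA around the transcription starts of these 2 genes is shown. The sequences are RefSeq windows on GRCm38.p6 of 300 bases, from 250 before to 50 after a start, written 5′ to 3′ on the strand of the gene. Capitals mark matches on either strand to any of 7 short motifs: CANNTG (E-box, bound by basic helix-loop-helix factors such as Neurod6), AGGTCA (core of the ROR element), AGGTGTGA (T-box), TGTTTAC for forkhead factors, TATAAA for the TATA box, CCAAT for the CCAAT box, and GGGCGG for the GC box. Rorb has a start at the 5′ end of the gene (chr19:19111147-19111446, minus strand) and another within it (chr19:19001068-19001367, minus strand), and Bcl11b has 1 (chr12:108003365-108003664, minus strand).
Rorb, first start: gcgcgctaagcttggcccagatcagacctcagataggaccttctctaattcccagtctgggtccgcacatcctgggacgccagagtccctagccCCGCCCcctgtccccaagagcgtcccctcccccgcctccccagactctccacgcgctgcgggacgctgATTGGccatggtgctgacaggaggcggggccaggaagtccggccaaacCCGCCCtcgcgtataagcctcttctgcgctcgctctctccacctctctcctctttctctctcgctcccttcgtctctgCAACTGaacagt
Rorb, second start: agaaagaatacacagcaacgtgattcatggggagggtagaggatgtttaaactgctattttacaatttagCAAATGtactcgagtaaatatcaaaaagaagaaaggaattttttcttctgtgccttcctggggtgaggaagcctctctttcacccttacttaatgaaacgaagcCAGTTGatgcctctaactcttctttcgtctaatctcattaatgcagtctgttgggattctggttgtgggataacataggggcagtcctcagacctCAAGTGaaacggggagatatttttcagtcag
Bcl11b: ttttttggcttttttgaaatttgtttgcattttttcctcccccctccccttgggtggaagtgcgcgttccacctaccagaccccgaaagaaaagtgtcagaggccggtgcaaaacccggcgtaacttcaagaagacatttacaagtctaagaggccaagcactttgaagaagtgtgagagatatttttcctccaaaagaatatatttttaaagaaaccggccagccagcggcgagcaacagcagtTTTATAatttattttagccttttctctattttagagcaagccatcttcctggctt

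The first Rorb window is rich in G and C (63.7%, against a median of 52.7% over all 32851 windows) and holds 2 GC boxes, 1 CCAAT box and 1 E-box. The second Rorb window is poor in G and C (41.0%) and holds 3 E-boxes and none of the other motifs. The Bcl11b window (43.0% G and C) holds a match to the TATA box letters and no E-box. This match is on the opposite strand and lies at the start itself, not upstream of it. Over the members, 8 of 9 had at least 1 window, 12 in all, and Foxp2 had none in the table. The E-box was in 9 of the 12 windows, against 72.3% of all windows, and the TATA box was in 2, those of Bcl11b and Cux2, against 13.6%. CCAAT was in 4 windows (37.4% of all windows) and the GC box in 5 (35.7%). The forkhead motif was in 1 window, that of Cux1 (3.65% of all windows). The ROR core (16.3% of all windows) and the T-box motif (1.27%) had no match in the 12. No match overlapped a match of another motif. A match describes the letters of these windows and shows no binding.

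The first comparison asked whether the layer factors differed between KO and WT brains. No member passed the test at either age, and with all mice the 95% interval of the difference included 0 for all but Cux2 at P21. At P21, 8 of 9 members had a lower mean log2 level in KO mice and 1, Cux1, a higher one. Their median log2 fold change was -0.040, beside 0.0042 over all genes tested, of which 52.5% were above 0.

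Cux2 had the largest difference between genotypes. Its normalized counts at P21 were 2646, 2393, 2292, 2448 and 2569 in WT mice and 2254, 2338, 2014, 2272 and 2113 in KO mice. The lowest WT mouse lay above 4 of the 5 KO mice, and the groups overlapped through the remaining one. The log2 fold change was -0.17 (SE 0.054, 95% interval -0.29 to -0.050), or 0.890 of the WT level, with an unadjusted limma p of 0.00868 and an adjusted p of 1.00. An exact permutation test of the 10 mice (two-sided, smallest possible p 0.00794) gave p = 0.0159. At P70 the counts were 2515, 2202, 2532, 2389 and 2537 in WT mice and 2592, 2153, 2341, 2386 and 2724 in KO mice. The P70 log2 fold change was -0.00023 (SE 0.079, interval -0.17 to 0.17).

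For Cux1, the other upper-layer homeobox factor, the P21 difference had the opposite sign. Its counts at P21 were 2486, 2468, 2404, 2384 and 2644 in WT and 2468, 2700, 2613, 2741 and 2425 in KO mice. The groups overlapped, with a log2 fold change of 0.063 (SE 0.049, interval -0.042 to 0.17). At P70 it was 2702 ± 230 in WT and 2724 ± 185 in KO mice (SD, n = 5 each), with a log2 fold change of 0.013. The Cux1 gene also encodes CASP, a Golgi protein that shares its first exons, and a count over the gene cannot separate the 2 products. An antisense gene, Gm16599, overlaps 1.97% of the exonic bases of Cux1, and the library kit kept no strand. Rorb, the layer 4 factor, was 683 ± 44.4 in WT and 654 ± 41.7 in KO mice at P21 (log2 fold change -0.062, SE 0.064), and 896 ± 104 against 870 ± 115 at P70 (-0.046, SE 0.11).

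The deep-layer factors overlapped between genotypes at both ages. Bcl11b was 1765 ± 150 in WT and 1714 ± 103 in KO mice at P21 (log2 fold change -0.040, interval -0.18 to 0.097). Tbr1 was 1831 ± 67.4 and 1809 ± 106 (-0.018, interval -0.13 to 0.090), and Foxp2 was 574 ± 39.8 and 570 ± 17.7 (-0.0080, interval -0.14 to 0.12). For these 3 genes the interval reached at most 11.6% below and 8.81% above the WT level. Fezf2 was 574 ± 28.4 in WT and 541 ± 27.3 in KO mice (-0.086, interval -0.21 to 0.041). At P70 the spread was wider for all 4. The P70 intervals ran from -0.41 to 0.23 for Bcl11b, -0.30 to 0.26 for Tbr1, -0.43 to 0.31 for Foxp2 and -0.16 to 0.28 for Fezf2. Without the replicate 5 mice these intervals were -0.18 to 0.089 for Bcl11b, -0.12 to 0.15 for Tbr1, -0.16 to 0.15 for Foxp2 and -0.16 to 0.29 for Fezf2. Among the other members but Neurod6, which follows, the P70 interval without these mice was -0.079 to 0.14 for Cux1, -0.17 to 0.12 for Cux2, -0.21 to 0.15 for Rorb and -0.18 to 0.14 for Foxp1.

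Neurod6 and Foxp1 mark neurons of more than 1 layer. Neurod6 at P21 was 1301, 1165, 1220, 1270 and 1213 in WT and 1150, 1110, 1142, 1200 and 1182 in KO mice. Of the KO mice, 3 lay below every WT mouse, and the log2 fold change was -0.092 (SE 0.047, interval -0.19 to 0.0088, unadjusted limma p = 0.0703, adjusted p = 1.00, exact permutation p = 0.0317). At P70 the order was the other way round, with 1409, 1408, 1188, 1289 and 1116 in WT and 1524, 1397, 1540, 1455 and 1124 in KO mice. Here 3 KO mice lay above every WT mouse, and the log2 fold change was 0.13 (SE 0.10, interval -0.096 to 0.36). Without the replicate 5 mice, the lowest of both P70 groups, the log2 fold change was 0.16 (SE 0.065, unadjusted limma p of 0.0284, adjusted p = 1.00), and its interval of 0.020 to 0.31 did not include 0. In that fit 651 of 17650 genes (3.69%) had an unadjusted p under 0.05. Foxp1 was 2009 ± 237 in WT and 1974 ± 187 in KO mice at P21 (-0.021, interval -0.21 to 0.17) and 2234 ± 243 against 2158 ± 363 at P70 (-0.060, interval -0.33 to 0.21). Foxp1 shares 2.18% of its exonic bases with Gm20696, a gene on the same strand that was read at a mean of 11.1 against 2094 for Foxp1.

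Across all genes, limma called 0 of 17610 at P21 and 0 of 17613 at P70 at an adjusted p under 0.05 (0% at each age), and by an unadjusted p under 0.05 it gave 429 genes (2.44%) at P21 and 199 (1.13%) at P70. Of the members, 1 of 9 (Cux2) had an unadjusted p under 0.05 at P21 and 0 of 9 at P70. The groups did not overlap for 0 of 9 members at either age, beside 0.46% of all genes at P21 and 0.193% at P70. Exact tests were run for 18 pairs of gene and age, with no adjustment over the members alone. Some markers of other cells leaned the same way across genotypes at P21: 11 of 12 oligodendrocyte genes, 10 of 10 choroid plexus genes, 12 of 13 cerebellar genes and 7 of 8 tested hindbrain and spinal cord genes were above 0 (KO minus WT), and 1 of 7 olfactory bulb genes was, with no gene called in any of these lists. The summed oligodendrocyte markers ranged from 402741 to 453510 in P21 WT and from 402124 to 588812 in P21 KO mice. The summed choroid plexus markers ranged from 25117 to 31284 and from 27534 to 43345. The hindbrain and spinal cord genes had a median log2 fold change of 0.77, beside 0.24 for the choroid plexus, 0.10 for the oligodendrocyte, 0.073 for the cerebellar and -0.39 for the olfactory bulb genes. The low sum of the hindbrain and spinal cord genes ranged from 627 to 1527 in P21 WT and from 1160 to 1666 in P21 KO mice. At P70, 10 of 10 choroid plexus and 11 of 11 microglial genes were above 0. Few were for the oligodendrocyte (3 of 12), cerebellar (2 of 13) and thalamic genes (1 of 10), again with none called. Of the members, 3 of 9 were above 0 at P70, beside 47.85% of all genes. The part of these cell types in the Cux2 and Neurod6 values was not tested. Set relative to 10 genes of telencephalic excitatory neurons, the P21 log2 fold change was -0.15 for Cux2 and -0.070 for Neurod6 (unadjusted limma p of 0.0414 and 0.308).

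**Figure D2:**
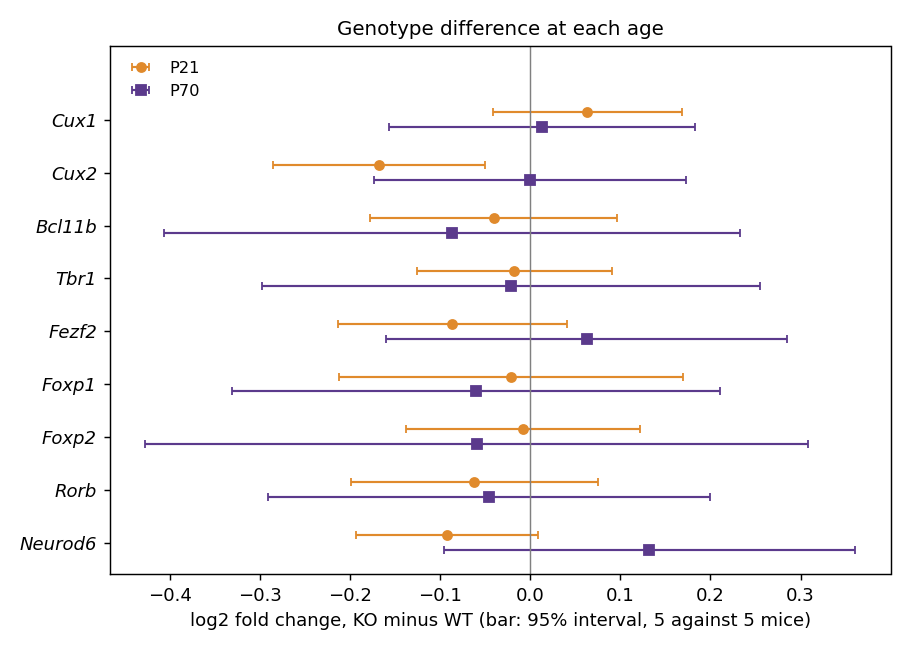
Log2 fold change of KO over WT (horizontal axis) for each gene at P21 and at P70, with 95% intervals from limma on 5 against 5 mice. With all mice, as drawn, all intervals but that of Cux2 at P21 include 0, and the P70 intervals are wider than the P21 intervals for all 9 genes.

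The P70 spread was wider than at P21, and for most members the replicate 5 mice lay far from the others. For 6 of 9 members (Bcl11b, Tbr1, Foxp1, Foxp2, Rorb and Neurod6) both replicate 5 mice lay below the other 8 P70 mice, beside 26.2% of all genes. Foxp2 was the most affected, at 486 in WT and 401 in KO, while the other 8 ranged from 632 to 757. The ratios to the mean of the other 4 mice of the genotype were 0.71 and 0.58. Bcl11b was 1810 and 1512, below the range of 2173 to 2620 of the others, and Tbr1 was 1583 and 1416, below 1916 to 2259. Cux1 went the other way, at 3091 and 2982 against 2505 to 2819, while Cux2 and Fezf2 stayed within the range of the others. The mouse of each genotype deviated in the same direction, and for these 6 genes the ratio was the lower one in the KO mouse. Without both replicate 5 mice, the SE of the P70 genotype difference ran from 0.049 (Cux1) to 0.10 (Fezf2), in place of 0.078 (Cux1) to 0.17 (Foxp2), and again 0 of 9 members passed the test.

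Over all genes, the deviation of the replicate 5 mice changed with transcript length. The length class of genes with the shortest transcripts (median 1339 bp) had a median of 0.30 on the log2 scale, the next length class (2460 bp) 0.12, the third (3645 bp) -0.037 and the length class with the longest (5959 bp) -0.30. Of the members, Bcl11b (8111 bp), Rorb (9293 bp), Foxp1 (7177 bp) and Foxp2 (6760 bp) have long transcripts and were low in these mice. Cux2 (8784 bp) also has a long one but stayed within the range of the others, and Cux1 (12862 bp) was high with the longest. Tbr1 (3977 bp) and Neurod6 (2150 bp) were low with shorter ones, and Fezf2 (2429 bp) stayed within the range. The summed markers of telencephalic excitatory neurons were the highest of their group in both replicate 5 mice, at 148952 in WT and 147819 in KO, where the P70 medians were 135585 and 133576. Sums of striatal markers (33134 and 32213) and of deep-layer markers that are not transcription factors (19672 and 19530) were also the highest. The cerebellar sums were the lowest, at 55679 and 47491 (medians 67756 and 65050). By the mean log2 level of the genes, only the telencephalic markers were again at the extreme in both mice (12.59 and 12.61). The striatal means were not the highest (10.76 and 10.72, against 10.8 and 10.74). The deep-layer mean was the highest in KO (9.795) but not in WT (9.82, against 9.826). The cerebellar mean was the lowest in KO (11.27) but not in WT (11.45, against 11.35). The part of these cell types in the values of the members was not tested. RNA entered library making only above a cut-off on its integrity number, the number of each mouse is not given in the sources used here, and the part of RNA quality in the P70 values was not tested.

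**Figure D3:**
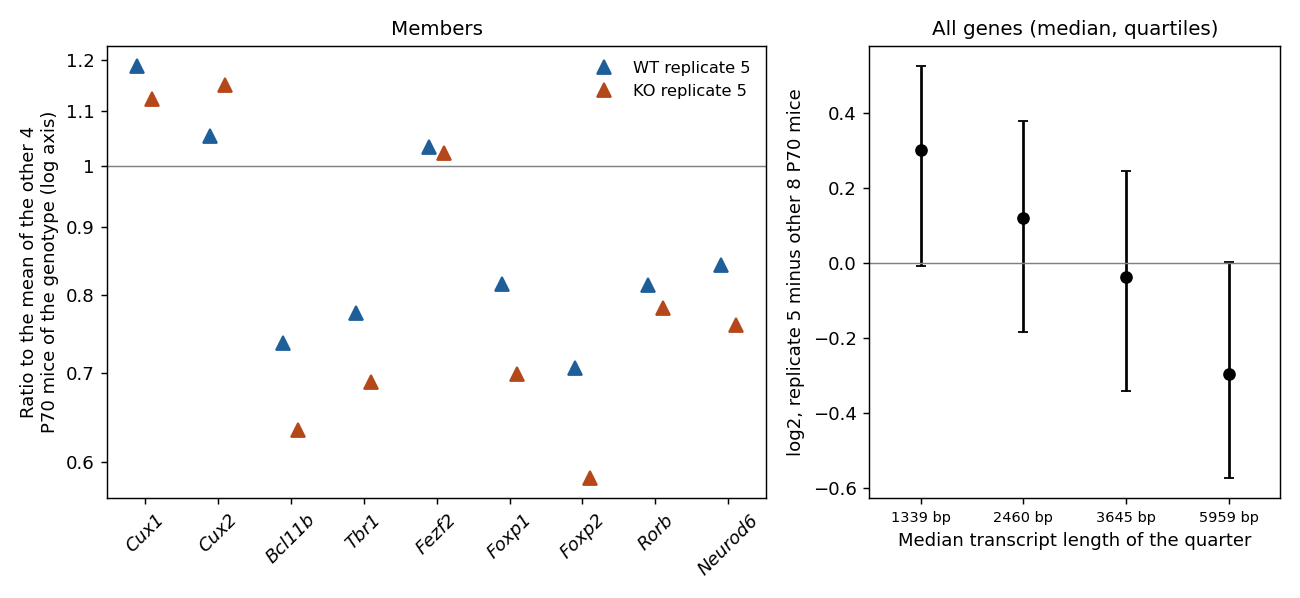
Left, the P70 replicate 5 mouse of each genotype as a ratio to the mean of the other 4 P70 mice of its genotype (vertical log axis) for the 9 genes. Right, over all genes in 4 classes of transcript length, the median log2 difference of the replicate 5 mice from the other 8 P70 mice, with bars to the quartiles, which falls from 0.30 to -0.30 as transcripts lengthen.

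The second comparison asked how the layer factors differed between the ages within a genotype. With all mice, Rorb was called higher at P70 than at P21 in both genotypes, and Bcl11b was called higher in WT mice. Each of these calls was lost under some of the alternatives given below. Whether the libraries of both ages were made together is not given in the sources used here, so age and library batch cannot be told apart.

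Rorb counts in WT mice were 744, 691, 688, 620 and 673 at P21 and 969, 1021, 896, 837 and 759 at P70. The 2 groups did not overlap, and the lowest P70 value was that of replicate 5. The log2 fold change was 0.39 (SE 0.089, 95% interval 0.19 to 0.58), or 30.7% higher, with an adjusted p of 0.0161 (limma). In KO mice the counts were 666, 614, 617, 658 and 716 at P21 and 981, 985, 833, 839 and 712 at P70. These groups overlapped through replicate 5 alone, whose P70 count was just under the highest at P21. The log2 fold change was 0.40 (SE 0.096, interval 0.19 to 0.61), or 32.2% higher, with an adjusted p of 0.0222. Without the P70 replicate 5 mouse it was 0.44 in WT (adjusted p = 0.0017) and 0.47 in KO mice (adjusted p = 0.00074). The WT call was lost without P21 WT replicate 4 (0.35, adjusted p = 0.0543). The KO call was lost without P21 KO replicate 1, 2, 3 or 4, or P70 KO replicate 1 or 2, with adjusted p between 0.052 and 0.0647 and log2 fold changes of 0.36 to 0.41. With the replicate number as a block in limma, the KO call was also lost (0.40, adjusted p = 0.0743) and the WT call was not (0.39, adjusted p = 0.025). The ages are different animals, so this block joins P21 and P70 mice by number alone and pairs nothing by design.

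Bcl11b counts in WT mice were 1890, 1666, 1626, 1684 and 1961 at P21 and 2469, 2442, 2299, 2620 and 1810 at P70. All P70 mice but replicate 5 lay above all P21 mice. The log2 fold change was 0.39 (SE 0.098, interval 0.18 to 0.60), or 31.2% higher, with an adjusted p of 0.0238. In KO mice the counts were 1672, 1727, 1567, 1846 and 1758 at P21 and 2330, 2173, 2551, 2491 and 1512 at P70. Again 4 P70 mice lay above all P21 mice, but replicate 5 lay below all of them, and the log2 fold change of 0.35 (SE 0.13, interval 0.072 to 0.62) had an adjusted p of 0.118. Without the P70 replicate 5 mouse it was 0.48 in WT (adjusted p = 0.0005) and 0.48 in KO mice (adjusted p = 0.00019). The WT call was lost without P21 WT replicate 2, 3 or 4, or P70 WT replicate 1, 2 or 4, with adjusted p between 0.0592 and 0.0678, and in limma without the intensity trend (adjusted p = 0.0517). A block on the replicate number in limma also ended the WT call, at an unchanged log2 fold change of 0.39 (adjusted p = 0.0547). Here too the block pairs no mice of different ages by design.

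The other members had smaller differences by age or differences that depended on the replicate 5 mouse. Foxp2 in WT mice was 570, 559, 517, 614 and 609 at P21 and 700, 643, 713, 699 and 486 at P70. In KO mice it was 578, 540, 578, 567 and 585 at P21 and 688, 757, 632, 671 and 401 at P70. In each genotype 4 P70 mice lay above all P21 mice and replicate 5 below them. With all mice the log2 fold change was 0.16 in WT (SE 0.11, adjusted p = 0.376) and 0.11 in KO mice (SE 0.14, adjusted p = 0.704). Without replicate 5 it was 0.26 in WT (SE 0.069, adjusted p = 0.0199) and 0.27 in KO mice (SE 0.063, adjusted p = 0.01).

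Neurod6 was 1157 ± 35.3 in KO mice at P21 and 1408 ± 169 at P70 (SD, n = 5 each), with 4 P70 mice above all P21 mice. The log2 fold change was 0.27 (SE 0.087, adjusted p = 0.0732), and without replicate 5 it was 0.35 (adjusted p = 0.00033). In WT mice Neurod6 was 1234 ± 52.7 and 1282 ± 131, with a log2 fold change of 0.050 (adjusted p = 0.745), or 0.099 without replicate 5 (adjusted p = 0.313). Tbr1 was 0.080 higher at P70 on the log2 scale in WT (adjusted p = 0.607) and 0.077 in KO mice (adjusted p = 0.732). Without replicate 5 these were 0.15 (adjusted p = 0.0861) and 0.18 (adjusted p = 0.0321). Fezf2 was 541 ± 27.3 in KO mice at P21 and 632 ± 69.1 at P70, a log2 fold change of 0.22 (adjusted p = 0.146), and 0.070 in WT mice (adjusted p = 0.662). Without replicate 5 the Fezf2 values were 0.21 in KO (adjusted p = 0.089) and 0.059 in WT mice (adjusted p = 0.672).

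Foxp1 had log2 fold changes of 0.16 in WT and 0.12 in KO mice (adjusted p = 0.368 and 0.621), and 0.21 and 0.22 without the P70 replicate 5 mouse (adjusted p = 0.118 and 0.0665). For the upper-layer pair the values were -0.020 in WT and 0.15 in KO mice for Cux2 (adjusted p = 0.891 and 0.275), and 0.12 and 0.072 for Cux1 (adjusted p = 0.299 and 0.583). Both Cux1 means at P70 include a replicate 5 mouse that was the highest of its group, and without it the log2 fold changes of Cux1 were 0.073 and 0.039 and those of Cux2 -0.036 and 0.11 (WT and KO).

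In WT mice limma called 2 of 9 members, both higher at P70, beside 1643 of 17630 genes in either direction (9.32%) and 815 higher (4.62%). In KO mice it called 1 of 9, beside 1467 of 17641 genes (8.32%), of which 667 were higher (3.78%). Without the P70 replicate 5 mouse it called 3 of 9 members higher in WT, beside 8.89% of all genes called higher, and 5 of 9 in KO mice, beside 10.6%. In either direction that fit called 17% of all genes in WT and 21.3% in KO mice. The ages did not overlap for 1 member in WT (Rorb), beside 10.8% of all genes, and for 0 in KO mice, beside 10.9%. The median log2 fold change of the members was 0.12 in WT and 0.15 in KO mice, beside 0.0015 and -0.010 over all genes. Of the 9, 8 in WT and 9 in KO mice were above 0, beside 50.24% and 48.01% of all genes.

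**Figure D4:**
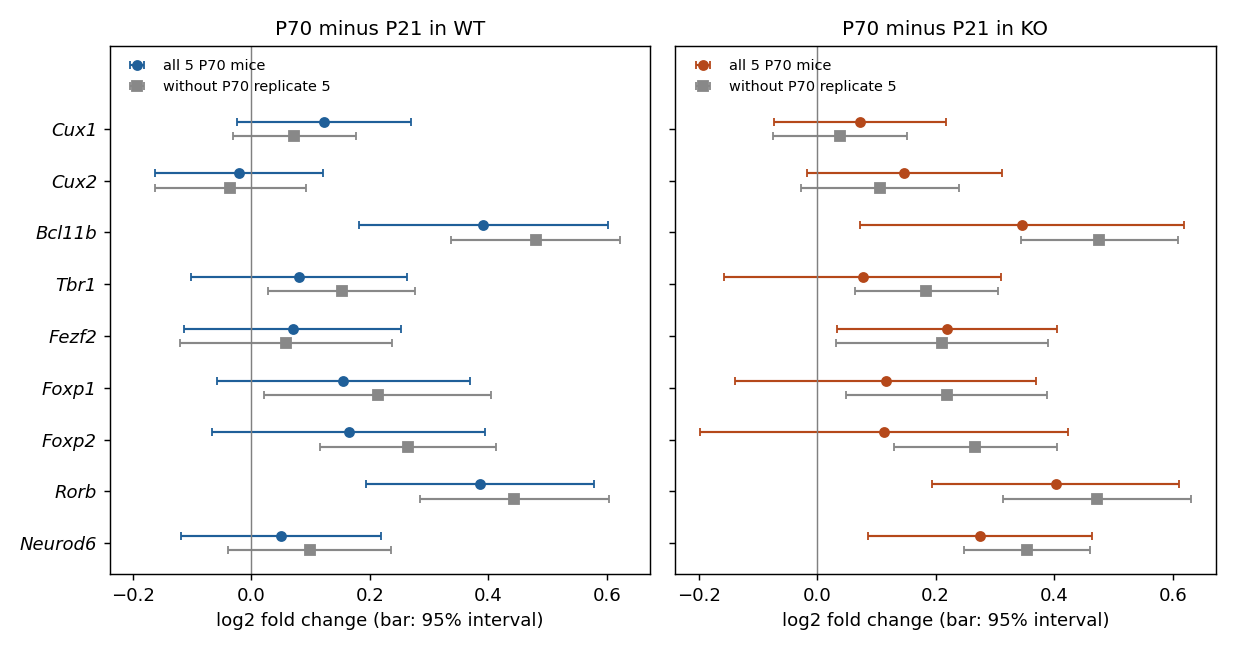
Log2 fold change of P70 over P21 (horizontal axis) in WT (left) and KO mice (right) for each gene with 95% intervals, with all 5 P70 mice and without the P70 replicate 5 mouse. Rorb and Bcl11b lie furthest to the right in both genotypes, and leaving out replicate 5 narrows most intervals and moves those of Bcl11b, Tbr1, Foxp1, Foxp2, Rorb and Neurod6 to the right.

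Markers of other cell types also differed between the ages. Counts of markers here are of those that passed the test at an adjusted p under 0.05 (limma). Of 12 oligodendrocyte markers, 10 passed as lower at P70 in WT and 11 in KO mice. Their sum was 402741 to 453510 in P21 WT and 171873 to 195551 in P70 WT mice, and 402124 to 588812 and 155138 to 203732 in KO mice. Of 12 striatal markers, 2 passed as higher in WT and 0 in KO mice (9 and 7 were above 0), and their sum was 25670 to 28997 in P21 WT and 27913 to 33134 in P70 WT mice, and 26428 to 29009 in P21 KO and 23079 to 32213 in P70 KO mice, where the lowest mouse lay below all P21 mice. Of 10 thalamic markers, 2 passed as lower in WT and 3 in KO mice (4 in KO without the P70 replicate 5 mouse), among them Plekhg1 (-0.55 and -0.74). Because values are scaled to the whole library, the members were also set relative to 10 genes of telencephalic excitatory neurons. On that scale the median of all genes was -0.064 in WT and -0.10 in KO mice, and 428 of 1369 called genes were higher in WT and 315 of 1427 in KO mice. No member passed the age test on it: Rorb was at 0.32 in WT (adjusted p = 0.0945) and 0.31 in KO mice (adjusted p = 0.152), and Bcl11b at 0.33 (adjusted p = 0.127) and 0.25 (adjusted p = 0.358). The 10 genes were themselves highest in the P70 replicate 5 mice (mean log2 level 12.59 in WT and 12.61 in KO, medians 12.42 and 12.41), where Rorb and Bcl11b were low. The SE of Rorb on this scale was 0.11 in WT and 0.12 in KO mice (0.089 and 0.096 without the scaling). The SE of Bcl11b was 0.12 and 0.15 (0.098 and 0.13 without it). No fit on this scale left out the P70 replicate 5 mice. The part of the other cell types in the age differences was not tested.

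The third comparison asked whether the genotype difference changed with age. In the interaction test on all 20 mice limma called 0 of 17637 genes (0%), and 296 (1.68%) had an unadjusted p under 0.05, among them 0 of the 9 members. Neurod6 had the largest value of the members. Its KO minus WT difference was 0.22 higher at P70 than at P21 on the log2 scale (SE 0.11, interval -0.013 to 0.46, unadjusted limma p of 0.0625, adjusted p = 1.00). Without the P70 replicate 5 mice this was 0.26 (SE 0.077, unadjusted limma p of 0.00338, adjusted p = 1.00), in a fit where 670 of 17652 genes (3.8%) had an unadjusted p under 0.05. Relative to the excitatory neuron genes, with all 20 mice, the Neurod6 value was 0.20 (SE 0.16, unadjusted limma p of 0.232). With all mice and without that scaling, the Cux2 value was 0.17 (SE 0.095, unadjusted limma p of 0.0924) and that of Fezf2 0.15 (SE 0.12). Those of the other 6 members lay between -0.051 and 0.017. Above 0 were 4 of 9 members, 0 of 13 cerebellar, 1 of 12 striatal, 1 of 12 oligodendrocyte and 1 of 8 hindbrain genes. For the olfactory bulb 5 of 6 were, and 46.94% of all genes. The part of these cell types in the values of the members was not tested. A member called by age in WT and not in KO mice, as Bcl11b was, is not shown to differ between genotypes, since its interaction was -0.046 (SE 0.17, interval -0.39 to 0.30).

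Related gene lists were set beside the members. Of 28 other transcription factors of cortical projection neurons, 0 were called between genotypes at either age. By age, 2 were called higher and 1 lower in WT, and 3 were higher and 1 lower in KO mice, and without the P70 replicate 5 mouse 8 were higher and 1 lower in WT and 11 higher and 2 lower in KO mice. The shares of all genes called in either direction were 9.32% and 8.32%, and 17% and 21.3% without that mouse. Nfib, a nuclear factor that acts in deep-layer neurons and glia, was higher at P70 in both genotypes (log2 fold change 0.33 in WT, adjusted p = 0.013, and 0.36 in KO mice, adjusted p = 0.047). These 28 factors also had their lowest sum in the replicate 5 mice, at 52856 in P70 WT and 47747 in P70 KO mice, where the medians were 65501 and 65649. Of 11 upper-layer and layer 4 markers that are not transcription factors, 1 was called higher and 1 lower in WT, and 1 higher and 2 lower in KO mice (2 and 2 without the P70 replicate 5 mouse). Rspo1, a secreted activator of Wnt signalling, was higher at P70 (0.69 in WT, adjusted p = 0.0129, and 0.95 in KO mice, adjusted p = 0.0011). Cdh13, a cadherin anchored to the membrane by a lipid, was lower (-0.43 and -0.44, adjusted p = 0.00165 and 0.00315). Of 15 deep-layer markers that are not transcription factors, 3 were called lower in WT and 1 in KO mice, and without that mouse 2 were higher and 5 lower in WT and 3 higher and 5 lower in KO mice. Tmem163, a zinc transporter, was at -0.66 and -0.80 with all mice (adjusted p = 0.00044 and 0.00027). The median log2 fold change by age was -0.051 in WT and -0.066 in KO mice for these deep-layer markers, of the opposite sign to that of the 9 members, and -0.091 and -0.032 without that mouse. With all mice, all 3 lists held 0 genes called between genotypes.

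Other cell types gave the following counts of genes called by age with all mice, and none of these lists had a gene called between genotypes. Over all genes the shares called by age were 9.32% in WT and 8.32% in KO mice, and 17% and 21.3% without the P70 replicate 5 mouse. Of 10 genes of telencephalic excitatory neurons, 1 was lower in WT and 1 higher in KO mice. Of 13 cerebellar genes, 1 was higher and 1 lower in WT and 4 were lower in KO mice. Without the P70 replicate 5 mouse these counts were 2 higher and 2 lower in WT and 4 higher and 2 lower in KO mice for the telencephalic genes, and 2 higher and 1 lower in WT and 1 higher and 5 lower in KO mice for the cerebellar genes. Hippocampal markers had 1 of 9 lower in WT and 0 called in KO mice. Olfactory bulb markers had 0 of 6 tested called in WT and 1 higher in KO mice, and hindbrain markers had 0 of 7 in WT and 1 of 8 lower in KO mice. Without that mouse 5 of 8 hindbrain genes were lower in KO mice (median -1.57, against -1.21 with it), 0 of 7 were called in WT, and the olfactory bulb had 1 higher and 1 lower in KO mice. Interneuron markers had 1 of 11 lower in WT and microglial markers 1 of 11 lower in WT, with 0 called in KO mice for both. Astrocyte markers had 0 of 10 called in either genotype, and choroid plexus markers 2 of 10 higher in WT and 0 in KO mice. Without that mouse, astrocytes had 1 higher in WT and 2 higher and 1 lower in KO mice, the choroid plexus 3 higher in WT and 2 in KO mice, and interneurons 1 higher and 2 lower in WT and 1 higher and 1 lower in KO mice, while the hippocampal and microglial counts were as before.

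The members were then compared with each other over the mice, as deviations of log2 values from the group mean. These correlations describe 20 libraries that share depth and the replicate 5 mice, and carry no test. Over all 20 mice Bcl11b and Tbr1 were the most alike pair (r = 0.92), and without the P70 replicate 5 mice r was 0.62. Bcl11b and Neurod6 went from 0.84 to 0.42, and Bcl11b and Foxp2 from 0.81 to -0.10. The upper-layer factor Cux1 was opposed to Neurod6 with all mice (r = -0.68) and less so without the 2 mice (-0.33). Without those mice, the 36 pairs ran from -0.42 (Fezf2 and Foxp2) to 0.62, with a median of 0.075. Cux1 and Cux2 were at 0.31 and 0.033.

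Among all 17637 genes, the gene most like Bcl11b was Efnb2, an ephrin ligand (r = 0.96, and 0.83 without the replicate 5 mice). Tbr1 was most like Snap91, a clathrin assembly protein of synapses (0.97 and 0.88), and Sv2b, a synaptic vesicle protein, was also among its closest 3 in both settings (0.96 and 0.88). Foxp2 was most like Itgb8, an integrin subunit (0.97 and 0.71), and Neurod6 was most like Rspo2, a secreted activator of Wnt signalling (0.93 and 0.77). Rorb was most like Kansl1l (0.89 and 0.83), Foxp1 Ago1, an Argonaute protein (0.91 and 0.84), and Fezf2 Rbm17, a splicing factor (0.80 and 0.79). Cux1 was most like Tcn2, a carrier of vitamin B12 (0.86 and 0.69). The closest gene over 18 mice was another one for all 9 members, so the order at the top differs with the mice included.

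As a last description, the mean log2 level of Cux1 and Cux2 less that of Bcl11b, Fezf2, Tbr1 and Foxp2 was taken in each mouse, as an upper minus deep difference of levels that are not set per length. It was 1.28 ± 0.011 in P21 WT and 1.27 ± 0.079 in P21 KO mice (SD, n = 5 each). At P70 it was 0.91 to 1.17 in 4 WT mice and 1.54 in replicate 5, and 0.94 to 1.12 in 4 KO mice and 1.72 in replicate 5. The replicate 5 mouse was the highest of both P70 groups, and every other P70 mouse lay below all P21 WT mice, although P70 WT replicate 3 lay above the lowest P21 KO mouse (1.15). Leaving out Foxp2 and Bcl11b, which the striatum also makes, gave 1.27 ± 0.064 and 1.27 ± 0.085 at P21 and 1.24 ± 0.20 and 1.23 ± 0.23 at P70. In that setting 3 of the 4 other P70 WT mice lay within the P21 WT range of 1.18 to 1.33.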

How the data were processed

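Whole-brain poly-A RNA of 20 mice was sequenced by the authors as 100 bp read pairs with a library kit that keeps no strand. The authors estimated gene counts with Salmon (GRCm38, corrected for GC bias), imported them with tximport and scaled them with DESeq2, and the deposited signal is these normalized counts. The submitters' processing notes name Salmon 1.1.0, R 3.6.2 and DESeq2 1.26.0. Gene-specific scaling left no whole reads, so no count test was run. Identifiers were matched to GENCODE M21, which gave a symbol for 19447 of 19463 genes. Depth is known only as an estimate from the smallest steps.

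Groups were taken from the sample labels, and replicates are separate mice. Each age, and each genotype for the age comparisons, was fitted with limma 3.58.1 in R 4.3.3 on log2(value + 1) (eBayes, trend on), keeping genes whose mean value reached 10. The interaction used 20 mice. P-values were adjusted over all genes tested (Benjamini-Hochberg) with a threshold of 0.05. All fold changes are on the log2(value + 1) scale, which understates changes of low genes. Single members were also compared by exact permutation (scipy 1.17.1). The limma fit was tested on simulated data. Correlations used Python 3.11.15.

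The members and lists were chosen with earlier results of these data known. The named genes are all 9 members, and for each other list the 2 genes with the smallest p between genotypes or with the largest rise and fall among those called by age in both genotypes, from which the text gives those that bear on the members. For likeness, the 3 closest genes per member were taken, and that of Cux2 is not reported here. Alternatives were the variance trend, quantile normalization, filters, pseudocounts of 0.5 and 10, 1 fit of 20 mice, the replicate number as a block, scaling to excitatory neuron genes, and leaving out mice. The alternatives without the P70 replicate 5 mice in the interaction and without the P21 replicate 3 mice were chosen after seeing the data.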

Additional observations from a re-analysis of the deposited data

Results flagged for a closer look

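In P21 WT mice, the lowest Fezf2 value was 524.8 normalized counts (replicate 4), while the other 4 mice lay between 578 and 596. The lowest Foxp1 value in the same group was 1595 (replicate 3), while the other 4 lay between 2024 and 2143, and replicate 3 was also the lowest of the P21 KO mice, at 1706. In both cases the gap to the nearest mouse, divided by the range of the group, was above Dixon's 95% critical value for 5 samples. Chance flags about 1 in 20 groups, and 36 combinations of gene and group were examined. Without P21 WT replicate 3, the KO minus WT log2 fold change of Foxp1 was -0.10 in place of -0.021, with an adjusted p of 1.00 (limma). Without the replicate 3 mice of both genotypes it was -0.051.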

How the results depend on the processing

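The labels do not say that replicate numbers pair the mice, and not every pair correlated over 0.1: WT and KO mice of a number correlated at -0.0091 to 0.26 at P21 and 0.075 to 0.71 at P70, and 5 of 10 and 7 of 10 mice correlated best with their own number, a hint from the data and not from the design, with the highest r for P70 replicate 5 and P21 replicate 3. With a replicate block, limma called 0 genes between genotypes and in the interaction; by age it called 1265 genes and 1 member (Rorb) in WT, where Bcl11b had an adjusted p of 0.0547, and 913 genes and 0 members in KO mice, where Rorb had 0.0743. Between the ages, the number joins different mice and pairs nothing by design. The block narrowed the P70 genotype interval of Cux2 to -0.11 to 0.11, and its interaction then had an unadjusted p of 0.0185 and that of Neurod6 0.0105 (adjusted p of 1.00 for both), beside 710 genes with an unadjusted p under 0.05. Limma without the trend called 1384 genes and 1 member by age in WT, and 1 fit of 20 mice called 2095 genes and 2 members in KO. Without both replicate 5 mice of each age, 2646 genes were called by age in WT and 3417 genes and 5 members in KO. Without the P70 replicate 5 and P21 replicate 3 mice these were 2850, 3811 and 5. Leaving out 1 mouse at a time gave 912 to 3000 genes and 0 to 3 members by age in WT, and 896 to 3759 genes and 0 to 5 members in KO. The lowest were without replicate 4 of P21 and the highest without replicate 5 of P70, and 0 members in KO also without P21 KO replicate 1, 2 or 3 or P70 KO replicate 1 or 2. Between genotypes, 0 to 1 genes were called without 1 mouse at P21 (Lenep without KO replicate 4, Spats2l without WT replicate 3), and 1 without both P21 replicate 3 mice (Spats2l) or, at P70, without both replicate 5 mice (Gm28438). These genes were named after their values were seen, and no member was called. Without Foxp2 and Bcl11b, the upper minus deep difference in P21 WT was 1.27.

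Some log2 fold changes near 0 changed sign, and the cause was not tested. Without 1 mouse at P21, KO minus WT ran from -0.046 to 0.010 for Tbr1, -0.10 to 0.030 for Foxp1 and -0.045 to 0.017 for Foxp2. At P70 it ran from -0.021 to 0.062 for Cux1, -0.041 to 0.044 for Cux2, -0.18 to 0.044 for Bcl11b, -0.093 to 0.086 for Tbr1, -0.13 to 0.042 for Foxp1, -0.16 to 0.095 for Foxp2 and -0.10 to 0.024 for Rorb; for all but Cux2 and Foxp1 the extremes were those without P70 KO and WT replicate 5. The interaction ran from -0.13 to 0.085 for Bcl11b, -0.075 to 0.10 for Tbr1, -0.11 to 0.063 for Foxp1, -0.15 to 0.10 for Foxp2 and -0.042 to 0.086 for Rorb, and Cux2 by age in WT from -0.047 to 0.015. Without both P21 replicate 3 mice Tbr1 was 0.017 at P21. Without both replicate 5 mice Foxp2 was 0.0044 at P21 and Tbr1 0.014 at P70. With quantile normalization Cux2 was 0.0073 at P70 and the Tbr1 interaction 0.013. Relative to excitatory neuron genes, P21 values were 0.0043 (Tbr1), 0.00098 (Foxp1) and 0.014 (Foxp2), age values -0.016 (Neurod6 in WT), -0.023 (Cux1 in KO) and -0.017 (Tbr1 in KO), and the Rorb interaction -0.012. The interaction without the P70 replicate 5 mice was 0.032 (Tbr1), 0.0052 (Foxp1) and 0.0025 (Foxp2). Without all replicate 5 mice it was 0.038 (Tbr1) and 0.0082 (Foxp1), and without the P70 replicate 5 and P21 replicate 3 mice 0.035 (Foxp1) and 0.045 (Foxp2). Read counts per gene were not used here, but no member was under 401.5 normalized counts in any mouse.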
